A study of Mus musculus with 15 samples.

Results

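The genes examined here encode chaperones and folding enzymes of the endoplasmic reticulum (ER), the sensors and transcription factors of the unfolded protein response, and proteins of ER-associated degradation and of translocation into and export from the ER. They were 33 protein coding genes, chosen by name, out of 49585 genes in the count table. All 33 were found there once each. Poly(A) RNA had been sequenced from 15 libraries in 5 groups of 3, all of C57BL/6 mouse origin. The 005 group is a mouse glioma stem cell line kept in stem cell medium without serum. The TDEC day 2 group holds 005 cells differentiated for 2 days towards endothelial cells (tumor derived endothelial cells, TDECs) in EGM-2 medium at 1% oxygen. The TDEC group was made in the same way, and its labels give no day. The TDEC sertraline group was differentiated for 5 days and then given 5 μM of sertraline, an antidepressant, with RNA taken 24 h later. The MBMEC group is purchased mouse brain microvascular endothelial cells in another medium, with serum, whose oxygen level was not given. Medium and oxygen changed together between 005 cells and TDECs, so their parts in a difference cannot be told apart, and all TDECs come from the 1 cell line.

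Proteins that enter the secretory pathway fold in the ER, where Hsp70 and Hsp90 type chaperones, lectin chaperones and disulfide isomerases act on them. When unfolded proteins build up, the membrane sensors IRE1 (gene Ern1), ATF6 and PERK start the unfolded protein response. IRE1 splices the Xbp1 mRNA, ATF6 is cut in the Golgi to release a transcription factor, and PERK slows translation. The XBP1 and ATF6 factors then raise the genes for chaperones, for degradation of misfolded proteins and for ER expansion. Counts per gene do not distinguish the spliced from the unspliced Xbp1 mRNA, so the activity of IRE1 was not measured here, nor was the cutting of ATF6.

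The libraries held 11283680 to 17093061 counts, and the 33 genes took 0.582% to 0.631% of them in 005 cells, 0.795% to 0.913% on day 2, 1.52% to 1.59% in TDECs, 1.99% to 2.08% with sertraline and 0.853% to 0.862% in MBMECs. Replicate 3 of 005 and replicate 3 of TDEC day 2 stood apart from the other 2 libraries of their groups, where the chi-square between libraries, divided by the number of genes, was 11.1 to 11.7 against 2.15 and 2.50 between the remaining pairs. Replicate 2 of TDEC sertraline did so at 6.97 to 7.27 against 2.28. Of the labelled cell types, the MBMECs carried the endothelial markers, whose 8 genes (Pecam1, Cdh5, Kdr, Tek, Tie1, Cldn5, Vwf and Emcn) summed to 6489 to 6640 CPM. The TDECs held 6.02 to 6.85 CPM of them, with Tie1 and Cldn5 at 0 counts in every library. The endothelial label of the TDECs is thus not borne out by these defining markers.

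The promoters of several of these genes hold the ER stress element, CCAAT and CCACG with 9 bases between them, at which ATF6 and NF-Y are known to bind. It was searched on both strands from 250 bases before to 50 after the RefSeq transcription start (GRCm38.p6), in 27 of the 33 genes, those matched to the promoter table by symbol. A match was found in 9 of the 27 promoters (33.3%) and in 37 of 27025 genes of the table (0.137%). The related element II, ATTGG and CCACG with 1 base between, was found in 2 of the 27 (7.41%) and in 0.0444% of all genes, and the unfolded protein response element TGACGTGG in Sec24d only (3.7%, against 0.714% of all genes). No matches in these promoters overlapped each other. Only exact matches were counted. The genes and the elements were both chosen for known ties to the unfolded protein response, so the higher shares among these genes are not a test. A match is a description of letters and not of binding. Large rises below belong both to genes with a match, such as Hspa5, and to genes without one, such as Dnajb9. A tie between a match and a rise was not tested. The sites are shown as a description of these promoters. They run 5′ to 3′ along the motif's own strand, and the capitals mark the fixed bases of the motif.
Hspa5, chr2:34772025-34772043, 65 to 47 bases before the start: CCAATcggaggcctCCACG
Dnajc3, chr14:118937827-118937845, 105 to 87 bases before: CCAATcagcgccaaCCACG
Pdia6, chr12:17266491-17266509, 98 to 80 bases before: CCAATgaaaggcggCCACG
Syvn1, chr19:6046532-6046550, 44 to 26 bases before: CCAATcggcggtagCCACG
Canx, chr11:50325800-50325818, 145 to 127 bases before: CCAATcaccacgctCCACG
Hsp90b1, chr10:86705638-86705656, 212 to 194 bases before: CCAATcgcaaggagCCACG
Hsp90b1, chr10:86705533-86705551, 107 to 89 bases before, reverse strand: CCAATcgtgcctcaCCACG
Calr, chr8:84847075-84847093, 162 to 144 bases before, reverse strand: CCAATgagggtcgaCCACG
Creld2, chr15:88819520-88819538, 126 to 108 bases before, reverse strand: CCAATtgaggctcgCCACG
Derl3, chr10:75893242-75893260, 156 to 138 bases before, reverse strand: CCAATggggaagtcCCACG
Herpud1, element II, chr8:94386377-94386387, 52 to 42 bases before: ATTGGgCCACG
Dnajb11, element II, chr16:22857852-22857862, 7 to 17 bases after: ATTGGcCCACG

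The 150 bases before the RefSeq start of Hspa5, the gene with the highest level per length in TDECs, show the setting of its element (chr2:34771940-34772089, + strand, GRCm38.p6). The capitals mark the exact match to the ER stress element. Copies that differ from it in some bases were not searched and stay in small letters, such as ccaatcagcggcctccaac in this stretch.
Hspa5 promoter: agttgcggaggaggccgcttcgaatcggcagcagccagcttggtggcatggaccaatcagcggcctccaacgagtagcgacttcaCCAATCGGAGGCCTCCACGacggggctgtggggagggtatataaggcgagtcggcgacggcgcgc

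Over the differentiation, the ER folding machinery rose as a group. Summed over the 33 genes, the level was 5704 ± 279 CPM in 005 cells, 8223 ± 743 CPM on day 2 and 15643 ± 466 CPM in TDECs (SD, n = 3 libraries each). CPM here are scaled by TMM over all 15 libraries. In bulk RNA, a change in the number of cells that express a gene and a change in RNA per cell cannot be told apart. Calls below, higher or lower, are those with a fold change above 2 and an adjusted p under 0.05 from edgeR's two-sided quasi-likelihood test, adjusted over all genes. On day 2, none of the 32 genes tested was called by edgeR and 0 by DESeq2, where 5.35% of all genes were called higher and 4.48% lower. At the adjusted p alone, 18 of the 32 were higher and 0 lower, against 18.8% and 20.2% of all genes, and their median log2 fold change was 0.34, against -0.021 over all genes. In TDECs against 005 cells, 22 of 33 were called higher and 0 lower, where 13.1% and 10.4% of all genes were called. At the adjusted p alone, 31 were higher and 0 lower, against 32.4% and 33.0% of all genes, with a median of 1.28 against -0.011 over all genes. TDECs against TDEC day 2 gave 15 called higher and 0 lower, where 11.1% and 9.35% of all genes were called. Without the fold threshold or a test, all 3 day 2 libraries were above all 005 libraries in 22 genes and below in 1, against 26.5% and 25.8% of all genes. All TDEC libraries were above all 005 libraries in 32 genes and below in 0, against 34.0% and 35.5% of all genes, and above all TDEC day 2 libraries in 30 and below in 1, against 33.6% and 35.2%. Derl3 is among these counts but passed the filter only through the TDEC libraries, and without it 21 of 32 were called higher against 005 cells and 14 of 32 against TDEC day 2. These comparisons share libraries, so they are not independent of each other.

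Other measures moved over the same course. Mitochondrial genes took 2.16% to 2.70% of the counts in 005 cells, at most 2.35% on day 2 and 3.48% to 3.60% in TDECs. The stem markers Sox2, Olig2, Nes, Prom1 and Fabp7 summed to 2064 to 2310.4 CPM in 005 cells, 1714 to 2053 CPM on day 2, 1268 to 1331 CPM in TDECs and 1037 to 1068 CPM with sertraline. The leukocyte and microglia markers Ptprc, Csf1r, Itgam, Cd68 and Aif1 summed to 11.8 to 12.7 CPM in 005 cells, 14.1 to 15.9 CPM on day 2, 33.0 to 38.7 CPM in TDECs and 22.8 to 30.7 CPM with sertraline, with Aif1 at 0 counts on day 2 and Ptprc at 0 counts with sertraline. The stem markers did not all move in 1 direction. Of the 5, 2 were called higher and 1 lower on day 2, and 1 higher and 2 lower in TDECs against 005 cells. Of all genes, 5.35% and 4.48% were called on day 2, and 13.1% and 10.4% in TDECs. Only 2 of the leukocyte and microglia markers were tested, with 0 called on day 2 and 1 called higher in TDECs against 005 cells. In MBMECs the leukocyte and microglia markers summed to 104 to 120 CPM, with Itgam at 0 counts, and the 5 stem markers to 257 to 258 CPM. Of 2 leukocyte and microglia markers tested in TDECs against MBMECs, 1 was called lower, where 20.8% of all genes were. All 5 stem markers were called higher there, where 28.1% of all genes were. The part of these measures in the results was not tested.

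**Figure D1:**
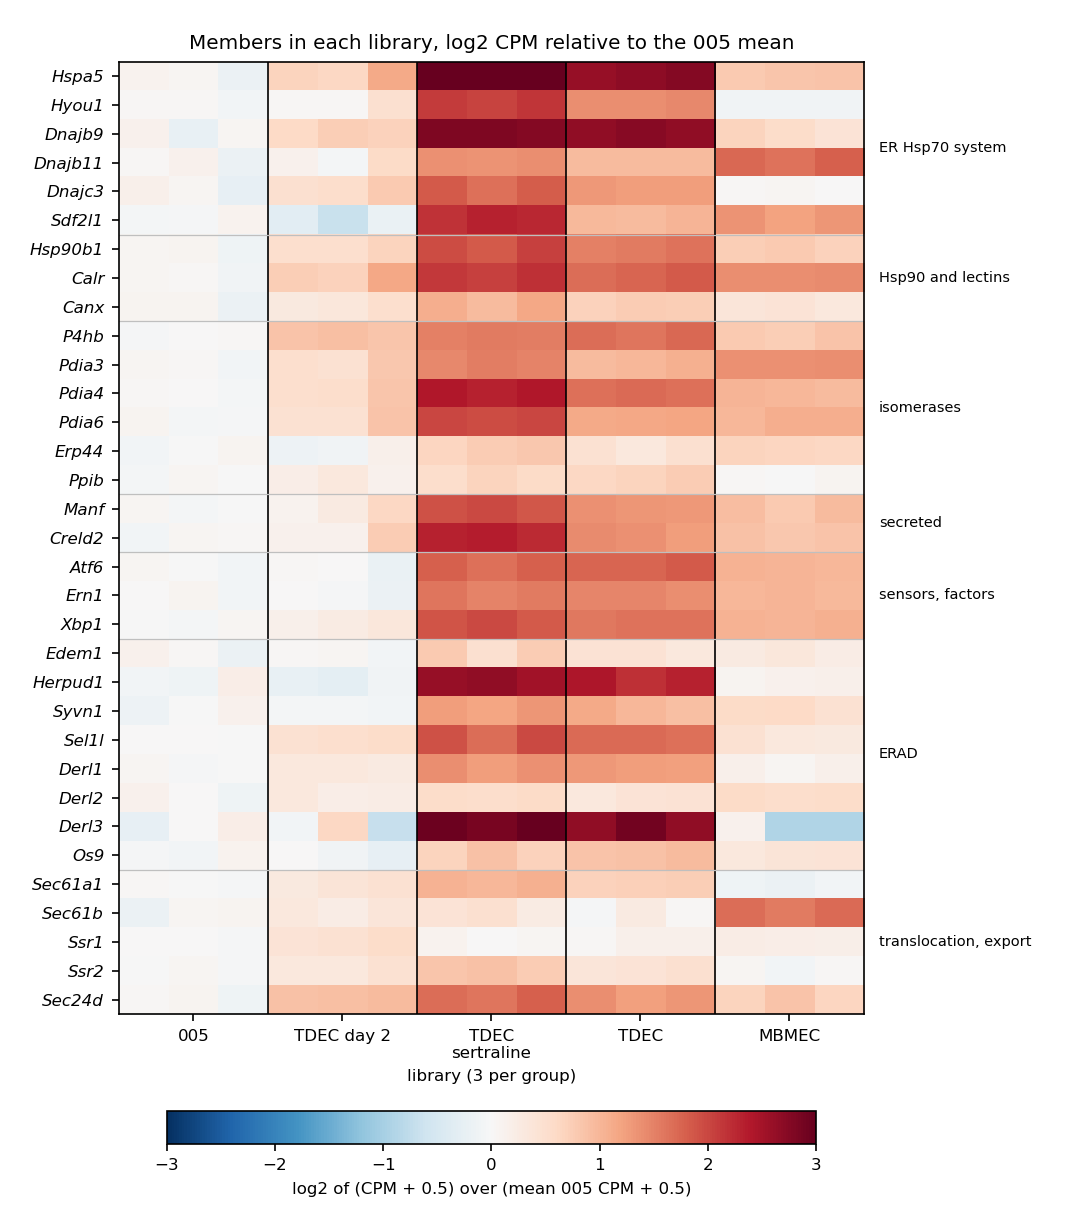
Each row is 1 gene and each column 1 library, 3 per group. Colour gives log2 of CPM plus 0.5 over the mean of the 005 libraries plus 0.5, with values past 3 shown in the end colour. Most rows are pale on day 2 and red in TDECs, with or without sertraline, and Sec61b and Ssr1 are among the palest rows in TDECs.

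In the Hsp70 system of the ER, 5 of the 6 genes were called higher in TDECs against 005 cells, against 13.1% of all genes. Hspa5 encodes BiP, the ER Hsp70 that binds unfolded chains and holds the sensors inactive. It was at 564, 539 and 461 CPM in the 005 libraries, 828, 805 and 1138 CPM in the TDEC day 2 libraries and 3185, 3330.0 and 3540.3 CPM in the TDEC libraries. No groups overlapped, and replicate 3 was the highest library of day 2. The log2 fold change was 0.81 (SE 0.13, adjusted p = 0.00061) on day 2 and 2.69 (SE 0.076, adjusted p = 3.3e-11) in TDECs, a 6.48-fold rise. Per kilobase of exon, Hspa5 was at 123 CPM in 005 cells, below Hsp90b1 (180.3), Canx (162), P4hb (154) and Calr (138). In TDECs its 793 CPM per kilobase stood above Hsp90b1 (537), P4hb (487) and Calr (469).

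Dnajb9 encodes ERdj4, a J protein that works with BiP and is an XBP1 target. Its levels were 17.1, 13.2 and 16.2 in 005 cells, 23.8, 26.2 and 25.2 on day 2 and 101, 105 and 101 in TDECs (CPM). The 3 groups did not overlap, and the fold changes were 0.68 (SE 0.13, adjusted p = 0.0015) on day 2 and 2.73 (SE 0.091, adjusted p = 1.3e-10) in TDECs. Hyou1, the nucleotide exchange factor of BiP, lay at 232, 231 and 211 CPM in the 005 libraries, 229.8, 230.0 and 316 CPM in the TDEC day 2 libraries and 594, 588 and 615 CPM in the TDEC libraries. The day 2 libraries overlapped the 005 libraries, with replicate 3 alone above them, and the change of 0.19 (SE 0.12) on day 2 did not pass the test (-0.0086 without replicate 3 of 005 and of TDEC day 2), against 1.42 (SE 0.058, adjusted p = 6.5e-10) in TDECs. Dnajc3 encodes p58IPK, a BiP cochaperone that also inhibits PERK. It was at 122, 115 and 93.6 in 005 cells, 153, 159 and 191 on day 2 and 273, 262 and 265 in TDECs (CPM), and rose by 0.59 on day 2 and 1.28 in TDECs on the log2 scale.

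Sdf2l1, a partner of the J proteins of BiP, followed another course. It was at 16.0, 16.5 and 18.0 CPM in the 005 libraries, 13.5, 10.4 and 14.7 CPM in the TDEC day 2 libraries and 33.3, 32.8 and 34.8 CPM in the TDEC libraries. All 3 day 2 libraries were below all 005 libraries, with a log2 fold change of -0.41 (SE 0.15, adjusted p = 0.052), and all TDEC libraries were above both. The rise in TDECs was 1.01 (SE 0.09), just past the fold threshold, and it stayed under that threshold without 005 replicate 1 (0.96), 005 replicate 2 (0.99) or TDEC replicate 3 (0.98), without a filter (0.99) and on plain library totals (0.88). Without TDEC day 2 replicate 3 the lower level on day 2 passed the test (-0.52, adjusted p = 0.021). Dnajb11, which encodes the J protein ERdj3, had a change of 0.97 (SE 0.077) in TDECs, past the test but under 2-fold, and just past 2-fold without 005 replicate 2 (1.04).

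Among the Hsp90 and lectin chaperones, Hsp90b1 encodes GRP94, the ER Hsp90. Its libraries were at 754, 764 and 662 in 005 cells, 1025, 1034 and 1162 on day 2 and 2070.4, 2152 and 2267 in TDECs (CPM), with no overlap between groups, and it rose by 0.55 (SE 0.083) and 1.58 (SE 0.064) on the log2 scale. Part of its exons, 415 bases, lies opposite to the annotated gene 1810014B01Rik, and whether reads were assigned by strand was not stated. Calr encodes calreticulin, the soluble lectin chaperone and calcium store of the ER. It was at 414, 412 and 370.0 in 005 cells, 669, 644 and 895 on day 2 and 1279, 1339 and 1436 in TDECs (CPM), and rose by 0.87 (SE 0.12) and 1.77 (SE 0.063). Canx encodes calnexin, its membrane counterpart, and moved less, at 809, 802 and 669 in 005 cells, 939, 958 and 1073 on day 2 and 1223, 1281 and 1271 in TDECs (CPM), with 0.36 (SE 0.091) and 0.74 (SE 0.07). The 3 groups were apart from each other for both lectins, and replicate 3 was the highest day 2 library and the lowest 005 library for both.

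The disulfide isomerases make and rearrange disulfide bonds. P4hb, the prototype protein disulfide isomerase and a subunit of prolyl 4-hydroxylase, was at 427, 444 and 446 CPM in the 005 libraries, 799, 819 and 777 CPM in the TDEC day 2 libraries and 1403, 1337 and 1439 CPM in the TDEC libraries. Its groups were wide apart and its replicates close, with 0.85 (SE 0.065, adjusted p = 3.2e-06) on day 2 and 1.68 (SE 0.052, adjusted p = 7.1e-11) in TDECs. Pdia4, known as ERp72, was at 106, 104 and 99.0 in 005 cells, 145, 149 and 183 on day 2 and 322, 333 and 327 in TDECs (CPM), with 0.61 (SE 0.10) and 1.68 (SE 0.057). Pdia6 was at 213, 194 and 196 in 005 cells, 275, 277 and 362 on day 2 and 446, 454 and 457 in TDECs (CPM), with 0.58 (SE 0.11) and 1.18 (SE 0.057). Pdia3, known as ERp57, which works with the lectin chaperones, was at 392, 388 and 355 in 005 cells, 539.6, 523 and 659 on day 2 and 733, 755 and 787 in TDECs (CPM), with 0.58 (SE 0.10) and 1.01 (SE 0.057). Pdia3 was under 2-fold without 005 replicate 3 (0.96) or TDEC replicate 3 (0.98) and on plain library totals (0.88). For these 3 isomerases, as for the lectins, replicate 3 was the highest library of day 2. Erp44, which retains partner proteins in the early secretory pathway, and Ppib, the prolyl isomerase cyclophilin B, passed the test in TDECs under 2-fold (0.43 and 0.69). Ppib shares 825 exon bases with Snx22 on the opposite strand.

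The secreted ER stress proteins Manf and Creld2 are both known to be induced by ER stress. Manf was at 109, 101 and 105 in 005 cells, 114, 126 and 163 on day 2 and 271, 263 and 260.4 in TDECs (CPM) and Creld2 at 34.9, 38.8 and 37.9 in 005 cells, 40.8, 40.6 and 63.2 on day 2 and 101, 97.5 and 88.9 in TDECs (CPM). In each, day 2 replicate 3 stood above the other 2 day 2 libraries. The change on day 2 was 0.34 (SE 0.12, adjusted p = 0.044) for Manf and 0.36 (SE 0.16, adjusted p = 0.096) for Creld2. Without replicate 3 of day 2 these were 0.17 (adjusted p = 0.11) for Manf and 0.11 (adjusted p = 0.36) for Creld2. Without replicate 3 of both groups Manf did pass (0.19, adjusted p = 0.003) and Creld2 did not (0.15, adjusted p = 0.15). In TDECs the 2 genes rose by 1.35 (SE 0.059) and 1.37 (SE 0.077). Exons of Manf overlap those of Dcaf1, Rbm15b and 4930524O07Rik.

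With all libraries in the fit, the sensors and transcription factors did not pass the test on day 2 and were called higher in TDECs. Atf6, which encodes the sensor of that name, was at 87.1, 83.0 and 79.0 CPM in the 005 libraries, 84.6, 84.4 and 72.8 CPM in the TDEC day 2 libraries and 281, 279 and 299.6 CPM in the TDEC libraries. Day 2 and 005 libraries overlapped, at -0.06 (SE 0.088, adjusted p = 0.62), while TDECs stood far above at 1.80 (SE 0.063, adjusted p = 1.9e-10). Ern1, which encodes IRE1 alpha, was at 26.3, 27.8 and 24.5 in 005 cells, 26.6, 25.6 and 23.1 on day 2 and 73.5, 73.2 and 69.4 in TDECs (CPM), with -0.078 (SE 0.11) on day 2, not past the test, and 1.47 (SE 0.077) in TDECs. Xbp1, the target of IRE1, was at 46.7, 45.2 and 49.2 in 005 cells, 52.7, 55.7 and 60.0 on day 2 and 143, 145 and 148 in TDECs (CPM). The day 2 libraries of Xbp1 were all above the 005 libraries, yet the difference of 0.24 (SE 0.088, adjusted p = 0.051) missed the threshold. Without replicate 3 of 005 and of TDEC day 2, Xbp1 did pass (0.24, adjusted p = 0.0053). Without TDEC day 2 replicate 3 alone it did not (0.19, adjusted p = 0.11). Atf6 and Ern1 passed in neither setting. In TDECs the change of Xbp1 was 1.64 (SE 0.062).

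ER-associated degradation showed the same order for its membrane scaffold Herpud1, which was at 24.7, 23.7 and 30.1 CPM in the 005 libraries, 22.2, 21.3 and 24.1 CPM in the TDEC day 2 libraries and 144, 122 and 131 CPM in the TDEC libraries. It had -0.23 (SE 0.12, adjusted p = 0.15) on day 2 and 2.34 (SE 0.10, adjusted p = 8.9e-10) in TDECs, a 5.08-fold rise. Os9, a lectin that hands misfolded glycoproteins to the ligase complex, was at 124, 121 and 138 in 005 cells, 129, 119 and 107 on day 2 and 233, 237 and 246 in TDECs (CPM), with -0.13 (SE 0.09) and 0.91 (SE 0.065). Sel1l, the adaptor of that ligase complex, was already higher on day 2, at 126, 125 and 124 in 005 cells, 172, 179 and 183 on day 2 and 405, 406 and 397 in TDECs (CPM), with 0.49 (SE 0.071) and 1.70 (SE 0.054). Derl1, a subunit of the channel through which proteins leave the ER, was at 100.1, 94.0 and 95.5 in 005 cells, 119.5, 120.4 and 116 on day 2 and 238, 231 and 228 in TDECs (CPM), with 0.28 (SE 0.073) and 1.28 (SE 0.059). Syvn1, the ligase HRD1, rose by 1.04 (SE 0.087) in TDECs, which was under 2-fold without 005 replicate 1 or TDEC replicate 1 (0.96 each) and on plain library totals (0.90). Edem1 and Derl2 passed the test in TDECs under 2-fold (0.41 and 0.41). Of Syvn1, 91 exon bases overlap Mrpl49, and of Derl2 231 overlap Mis12, both on the opposite strand. Derl3, a Derlin known from secretory cells and named here after its values were seen, was near the limit of detection in 005 cells with 4, 6 and 8 counts, and on day 2 with 5, 13 and 1. It had 61, 78 and 66 counts in TDECs, and it passed the filter on low counts only in comparisons with TDECs, where it was 3.71 (SE 0.29) above 005 cells.

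Of the genes for translocation and export, 1 of 5 was called higher in TDECs against 005 cells, against 13.1% of all genes, with a median of 0.43. On day 2 all 5 were higher at the adjusted p alone, against 18.8% of all genes, with a median of 0.37. Sec24d, a cargo-binding subunit of the COPII coat that buds vesicles from the ER, was at 42.4, 44.1 and 37.9 in 005 cells, 76.4, 77.9 and 80.5 on day 2 and 110.5, 98.0 and 105 in TDECs (CPM), with 0.90 (SE 0.09) and 1.35 (SE 0.079). Sec61a1 encodes the channel of the translocon and was at 278, 270.0 and 263 in 005 cells, 334, 354 and 372 on day 2 and 439, 442 and 454 in TDECs (CPM), with 0.37 (SE 0.073) and 0.73 (SE 0.052). Of its exons, 549 bases lie opposite to Gm44170. Ssr2, a subunit of the translocon-associated complex, was at 118, 123 and 116 in 005 cells, 148, 148 and 162 on day 2 and 153, 158 and 168 in TDECs (CPM), with 0.34 (SE 0.077) and 0.43 (SE 0.061). Ssr1, another subunit of that complex, was at 196, 197 and 188 CPM in the 005 libraries, 255, 264 and 283 CPM in the TDEC day 2 libraries and 198, 216 and 214 CPM in the TDEC libraries. It was highest on day 2 with no overlap, 0.45 (SE 0.074, adjusted p = 0.00067) above 005 cells, and TDECs were -0.34 (SE 0.06, adjusted p = 0.00045) against day 2 and 0.13 (SE 0.058, adjusted p = 0.076) against 005 cells. Sec61b, the beta subunit of the channel, was at 25.9, 30.5 and 31.2 in 005 cells, 36.5, 34.3 and 37.4 on day 2 and 28.6, 35.2 and 29.7 in TDECs (CPM), and its change in TDECs of 0.11 (SE 0.11, adjusted p = 0.39) did not pass the test.

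**Figure D2:**
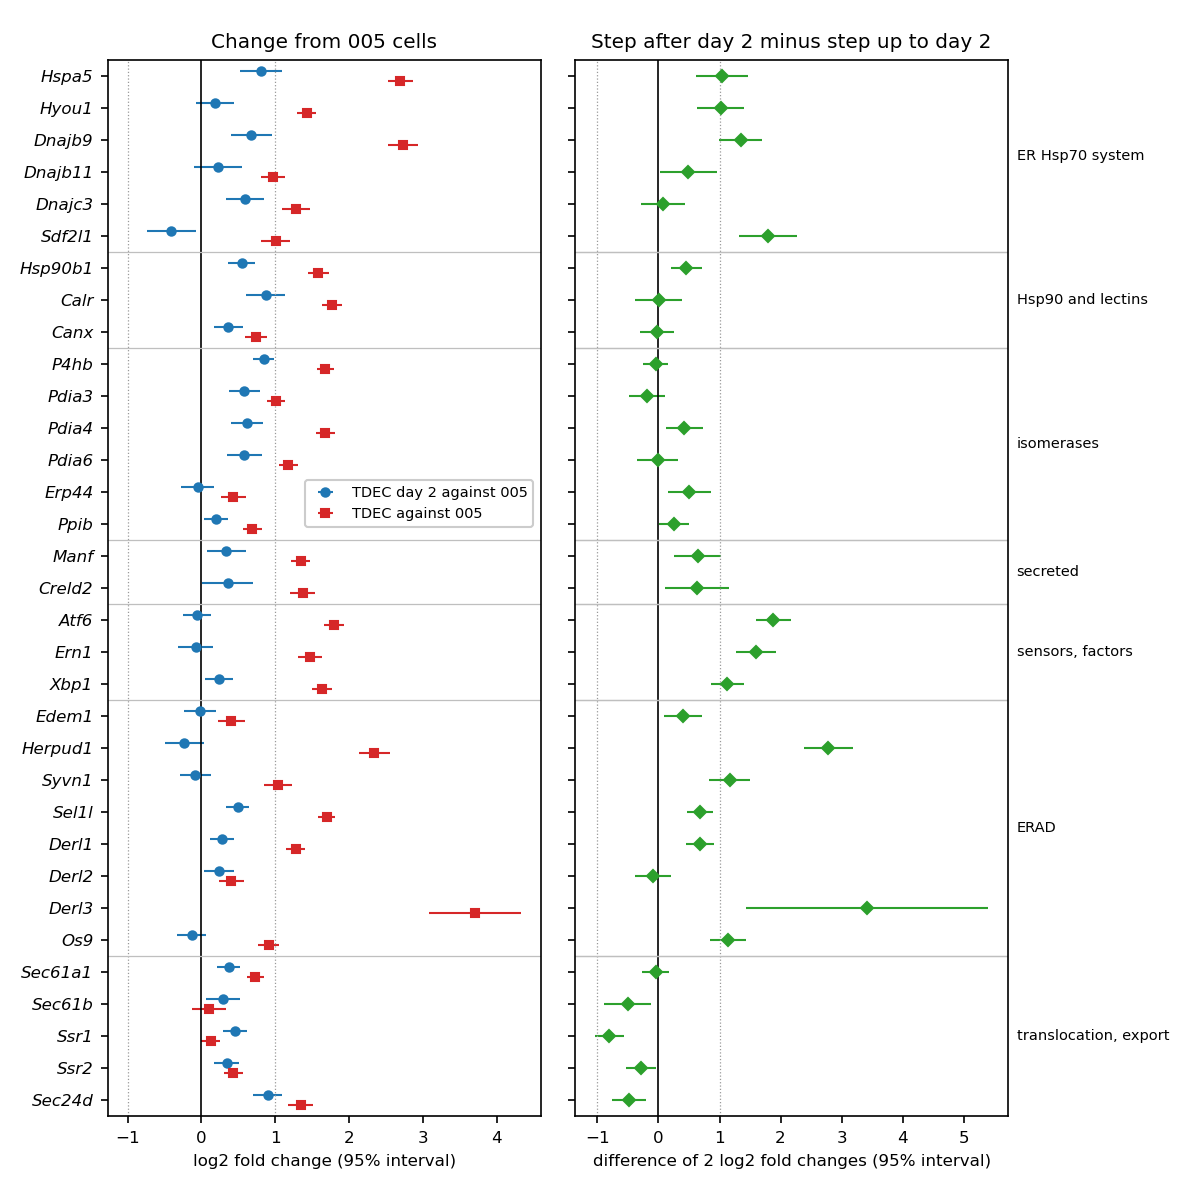
Left, log2 fold change of each gene against 005 cells on day 2 (circles) and in TDECs (squares). Right, the step from day 2 to TDECs minus the step from 005 cells to day 2. Bars are 95% intervals and dotted lines mark a log2 value of 1 in either direction. Atf6, Ern1, Herpud1, Syvn1 and Os9 have circles at or below 0 and squares near or above 1. Derl3 has no circle since it was not tested on day 2.

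Whether a gene changed more after day 2 than before was tested directly, as the difference between the 2 steps over the 9 libraries of 005, TDEC day 2 and TDEC, at an adjusted p under 0.05. This difference was higher for 19 of the 33 genes and lower for 3, where 24.9% and 28.2% of all genes were called. The labels give no day for the TDEC group, and the 2 steps may differ in length. They were not scaled by their length, so its part was not tested. All 3 sensors and factors were among the 19, with 1.88 (SE 0.13, adjusted p = 3.3e-08) for Atf6, 1.59 (SE 0.15, adjusted p = 8.6e-07) for Ern1 and 1.13 (SE 0.13, adjusted p = 4.2e-06) for Xbp1. Without Derl3 the count was 18 of 32. Of ER-associated degradation without Derl3, 6 of 7 genes were higher, all but Derl2, with Herpud1 at 2.78 (SE 0.19, adjusted p = 2.2e-08). Of the Hsp70 system, Sdf2l1 (1.79, SE 0.23), Dnajb9 (1.35, SE 0.17), Hspa5 (1.04, SE 0.20) and Hyou1 (1.02, SE 0.18) were higher. The 3 genes that were lower belong to translocation and export, with Ssr1 at -0.81 (SE 0.11, adjusted p = 2.5e-05), Sec61b at -0.50 (SE 0.18, adjusted p = 0.028) and Sec24d at -0.49 (SE 0.13, adjusted p = 0.0067).

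For P4hb the step after day 2 differed little from the step before it, by -0.048 (95% interval -0.25 to 0.15). For Calr the difference was 0.0016 (-0.38 to 0.38) and for Pdia6 -0.014 (-0.36 to 0.33). These 2 depended on replicate 3 of day 2, without which the late step was the larger by 0.33 (adjusted p = 0.025) for Calr and by 0.28 (adjusted p = 0.038) for Pdia6. Creld2, Edem1 and Sec61b lost the call in 6, 7 and 5 of the settings that left out 1 library, and Pdia4, Erp44 and Manf in 2, 2 and 1 of them. Hspa5, Sdf2l1 and Ssr1 were past the threshold also without replicate 3 of both groups, at 1.48, 1.96 and -0.70.

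Against MBMECs, the TDECs were higher in most of these genes and the 005 cells lower. Of the 33 genes, 8 were called higher and 1 lower in TDECs, where 28.1% and 20.8% of all genes were called. The share called higher was thus not above that of all genes. Without Derl3, 7 of 32 were called higher. At the adjusted p alone, 26 were higher and 5 lower, against 45.7% and 40.2% of all genes, and the median was 0.60, against 0.086 over all genes. In 005 cells against MBMECs, 0 of 32 were called higher and 7 lower, where 25.3% and 18.7% of all genes were called. The share called lower was thus near that of all genes. At the adjusted p alone, 1 was higher and 25 lower, against 42.9% and 36.9% of all genes, with a median of -0.66 against 0.089 over all genes. The libraries did not overlap in 26 genes above and 6 below for TDECs, against 44.7% and 41.2% of all genes, and in 1 above and 26 below for 005 cells, against 42.7% and 38.4%. Both comparisons use the same MBMEC libraries. Cell type, medium and origin differ together here, and oxygen may differ as well, so their parts cannot be told apart. The MBMEC titles also lack the prefix of the 005 and TDEC titles, so any batch cannot be told apart either.

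The 8 genes called higher in TDECs were Hspa5, Hyou1, Dnajb9, Dnajc3, Herpud1, Sel1l, Derl1 and Derl3. Hspa5 was at 3185, 3330.0 and 3540.3 CPM in TDECs against 893, 935 and 937 CPM in MBMECs, 3.81-fold higher with a log2 fold change of 1.93 (SE 0.044, adjusted p = 3.7e-25). Herpud1 was at 144, 122 and 131 CPM in TDECs against 27.9, 28.8 and 29.0 CPM in MBMECs, with 2.28 (SE 0.066, adjusted p = 1.1e-22). Dnajb9 was at 101, 105 and 101 CPM in TDECs against 25.0, 22.8 and 20.8 CPM in MBMECs, with 2.23 (SE 0.07, adjusted p = 7.3e-22). No TDEC library came near the MBMEC range in these 3 genes. Hyou1 (1.58, SE 0.044), Sel1l (1.39, SE 0.048), Dnajc3 (1.31, SE 0.047) and Derl1 (1.21, SE 0.049) followed. Derl3 had 61, 78 and 66 counts in TDECs against 8, 0 and 0 counts in MBMECs.

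Sec61b was the 1 gene called lower, at 28.6, 35.2 and 29.7 CPM in TDECs against 94.8, 87.5 and 95.5 CPM in MBMECs, with -1.50 (SE 0.072, adjusted p = 2.3e-17). It was as low in 005 cells, at -1.63 (SE 0.086, adjusted p = 2e-09) against MBMECs. Dnajb11 (-0.70, SE 0.049), Pdia3 (-0.31, SE 0.042), Sdf2l1 (-0.25, SE 0.074) and Erp44 (-0.16, SE 0.064) passed the test as lower in TDECs under 2-fold. Dnajb11 was at 128, 129 and 129 CPM in TDECs against 218, 207 and 230.5 CPM in MBMECs, and Pdia3 at 733, 755 and 787 CPM in TDECs against 980.1, 973 and 998 CPM in MBMECs, with no overlap in either.

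In 005 cells the 7 genes called lower than in MBMECs were Dnajb11 (-1.69), Sec61b (-1.63), Calr (-1.37), Pdia3 (-1.34), Sdf2l1 (-1.28), Pdia6 (-1.03) and Xbp1 (-1.02). Calr was at 414, 412 and 370.0 CPM in 005 cells against 1045, 1050.4 and 1071 CPM in MBMECs. Hspa5 was at 564, 539 and 461 CPM in 005 cells against 893, 935 and 937 CPM in MBMECs, which passed the test at -0.79 (SE 0.073). On plain library totals, which moved the median of all genes to 0.30, Pdia6 and Xbp1 were no longer past 2-fold (-0.81 each), and at the adjusted p alone 5 genes were then higher and 20 lower.

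**Figure D3:**
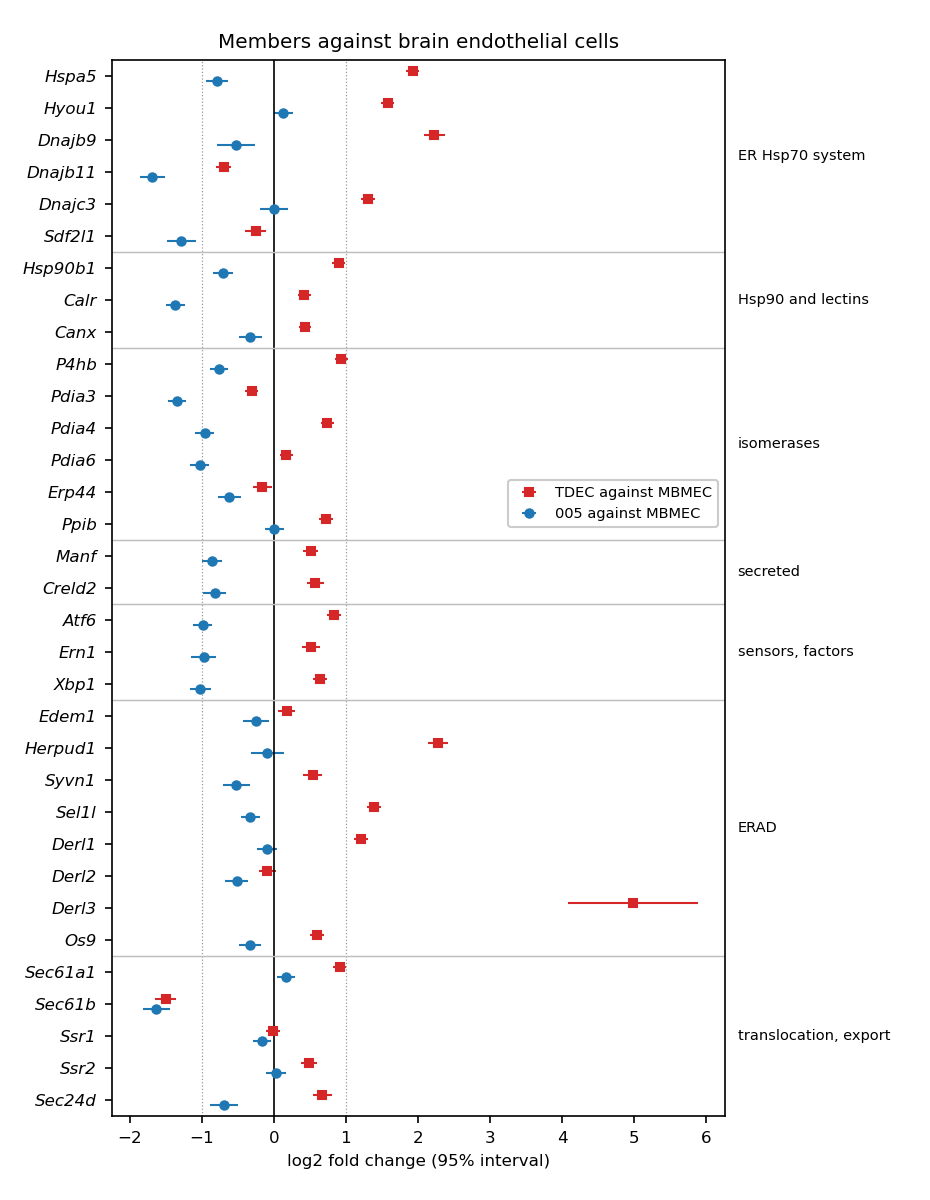
Log2 fold change of each gene against MBMECs in TDECs (squares) and in 005 cells (circles), with 95% intervals and dotted lines at a log2 value of 1 in either direction. Most circles lie left of 0 and most squares right of it. Sec61b and Dnajb11 are left of 0 in both.

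Many of these genes were higher still in the sertraline group, by small amounts. Summed over the 33 genes, the level was 20025 ± 373 CPM with sertraline and 15643 ± 466 CPM in untreated TDECs (SD, n = 3 each), and without Hspa5 it was 15519 ± 496 and 12291 ± 289 CPM. Only Sdf2l1 was called higher and none lower, where 1.82% and 3.26% of all genes were called. At the adjusted p alone, 22 of 33 were higher and 2 lower, against 17.6% and 17.7% of all genes, and the median was 0.29, against -0.00025 over all genes. In 23 genes all sertraline libraries were above all untreated ones, and in 2 all were below, against 24.6% and 22.6% of all genes. The treated libraries were taken 24 h after day 5 and carry titles without the prefix of the untreated ones, so drug, time and any batch cannot be told apart. Mitochondrial genes took 2.47% to 2.62% of the counts with sertraline and 3.48% to 3.60% in untreated TDECs, and the part of this in the results was not tested.

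Sdf2l1 was at 77.1, 85.2 and 82.4 CPM with sertraline against 33.3, 32.8 and 34.8 CPM in untreated TDECs, a 2.37-fold rise with a log2 fold change of 1.24 (SE 0.067, adjusted p = 1.4e-09), and it was called in every alternative tried (1.22 to 1.32). Creld2 was next, at 188, 191 and 177 CPM with sertraline against 101, 97.5 and 88.9 CPM in untreated TDECs, with 0.92 (SE 0.061, adjusted p = 1.6e-08). Pdia6 was at 803, 786 and 808 CPM with sertraline against 446, 454 and 457 CPM in untreated TDECs, with 0.79 (SE 0.046, adjusted p = 3.4e-09). In these 3 genes the lowest treated library was well above the highest untreated one. Pdia4 (0.67, SE 0.05), Hyou1 (0.64, SE 0.048), Manf (0.55, SE 0.051), Dnajc3 (0.47, SE 0.057), Pdia3 (0.45, SE 0.048), Hspa5 (0.39, SE 0.047) and Dnajb11 (0.38, SE 0.052) also rose. Hspa5 was at 4400.0, 4682 and 4434 CPM with sertraline against 3185, 3330.0 and 3540.3 CPM in untreated TDECs. The chaperones Hsp90b1, Calr and Canx rose by 0.35, 0.32 and 0.30.

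Some of the genes called higher in TDECs against 005 cells did not pass the test with sertraline. Dnajb9 was at 111, 111 and 107 CPM with sertraline against 101, 105 and 101 CPM in untreated TDECs, with 0.067 (95% interval -0.048 to 0.18). Atf6 was at 290.3, 264 and 289 CPM with sertraline against 281, 279 and 299.6 CPM in untreated TDECs, with -0.062 (-0.18 to 0.054). Ern1 (0.074, -0.053 to 0.20), Derl1 (0.044, -0.072 to 0.16) and Sel1l (0.15, 0.0066 to 0.28) were also short of it. These intervals leave out a 2-fold change in either direction. Xbp1 (0.25) and Herpud1 (0.26) did pass. P4hb and Os9 were lower, at 1250.1, 1289 and 1266 CPM with sertraline against 1403, 1337 and 1439 CPM in untreated TDECs for P4hb, with -0.17 (SE 0.045, adjusted p = 0.0086) and -0.18 (SE 0.058, adjusted p = 0.022). Neither was past the test on plain library totals or without TDEC replicate 3. Os9 also fell short with all 15 libraries in 1 fit and without TDEC replicate 2 (adjusted p = 0.065 each). It did so too without TDEC sertraline replicate 1 (adjusted p = 0.12) or replicate 3 (adjusted p = 0.09).

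**Figure D4:**
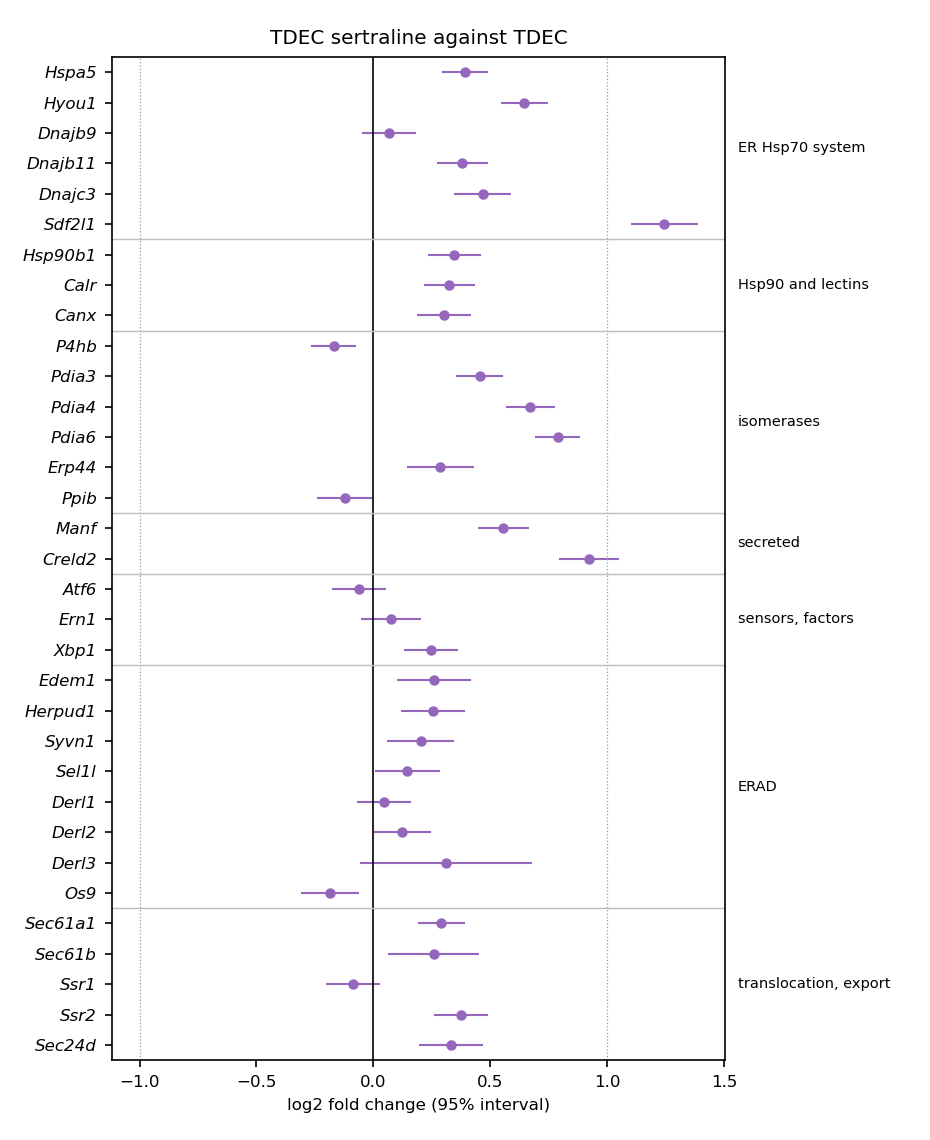
Log2 fold change of each gene in sertraline-treated against untreated TDECs, with 95% intervals and dotted lines at a log2 value of 1 in either direction. Sdf2l1 is the 1 point past the right dotted line, Creld2, Pdia6, Pdia4 and Hyou1 come next, and P4hb and Os9 lie left of 0.

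**Figure D5:**
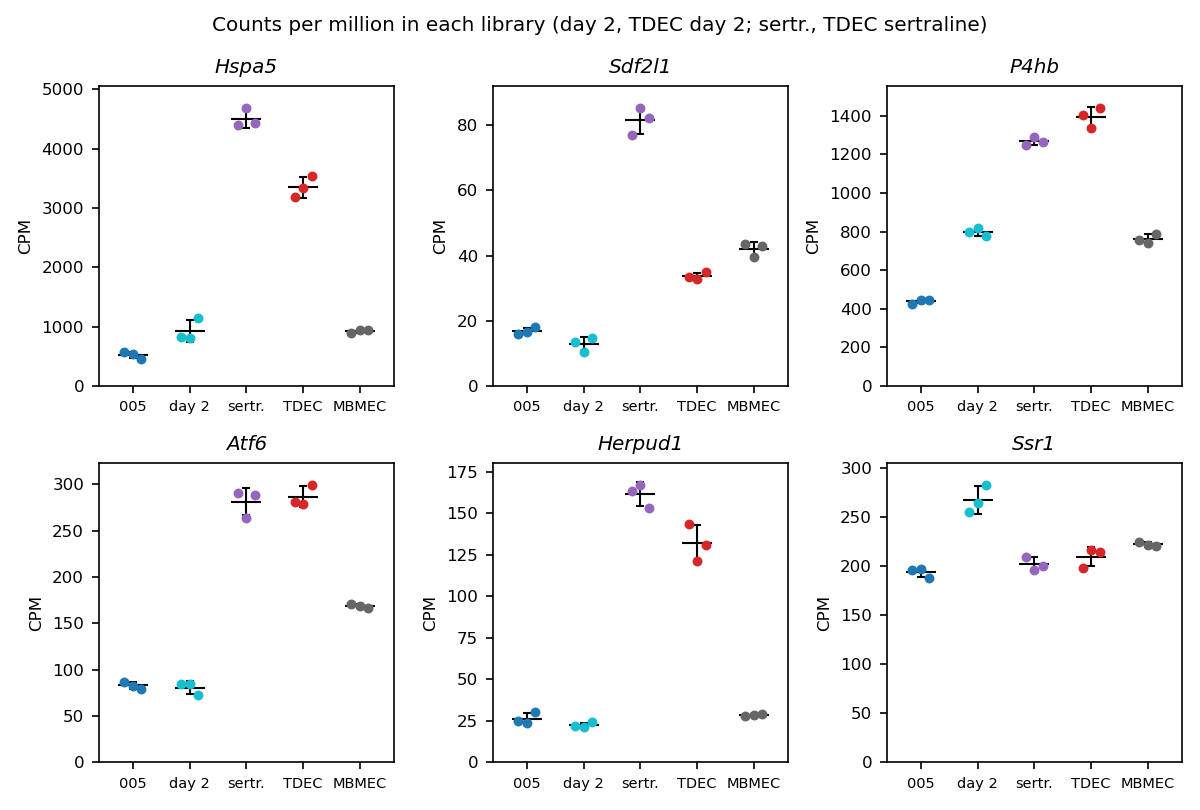
CPM of 6 genes in each library (points), with mean and SD of the 3 libraries per group (bar and whiskers). The vertical axes start at 0. Hspa5 and Herpud1 are low in 005 cells, on day 2 and in MBMECs, Atf6 is level in 005 cells and on day 2, P4hb is intermediate on day 2, and Ssr1 peaks there.

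The 9 genes with the ER stress element shown above were followed as a set. Derl3 is left out of the counts, since it passed the filter only through the TDEC libraries. In TDECs against 005 cells, 7 of the other 8 were called higher and Canx (0.74) was not, with a median of 1.33, beside 13.1% of all genes called higher. Of the 18 other genes in the promoter table, 10 were called higher, with a median of 1.01. These 18 include Herpud1 and Dnajb11, which carry element II, and Sec24d, which carries the unfolded protein response element. Against MBMECs, 2 of the 8 were called higher in TDECs and 0 lower, with a median of 0.56. Of the 18 others, 3 were called higher and 1 lower there, with a median of 0.56, where 28.1% and 20.8% of all genes were. In the difference between steps, 4 of the 8 were higher and 0 lower, with a median of 0.27. Of the 18 others, 10 were higher and 3 lower, with a median of 0.46, where 24.9% and 28.2% of all genes were. With sertraline, the 8 were higher at the adjusted p alone, with a median of 0.37, and of the 18 others 10 were higher and 2 lower, with a median of 0.25, where 17.6% of all genes were higher and 17.7% lower. The element also occurs in 28 genes that are not among the 33. The 11 of them that were tested in TDECs against 005 cells gave 3 called higher and 1 lower, with a median of 0.36. The 3 were Ero1lb, an oxidase that recharges the disulfide isomerases (1.36, SE 0.12), Alg12, a mannosyltransferase of N-glycan synthesis (1.06, SE 0.15), and Xlr3b (1.05, SE 0.28), and the lower gene was Zfp57 (-1.01, SE 0.12), a zinc finger protein of imprinted regions. With sertraline, 0 of the 11 were called higher and 2 lower, Xlr3b (-1.63, SE 0.29) and Xlr3c (-1.25, SE 0.17), near-identical copies whose counts may share reads. Of the 11, 3 were higher and 4 lower at the adjusted p alone, with a median of -0.17, and Ero1lb was 0.67 (SE 0.10, adjusted p = 8.1e-05) and Alg12 0.33 (SE 0.092, adjusted p = 0.012).

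Other genes of these pathways were counted from lists of their own. In TDECs against 005 cells, the PERK branch had 6 of 10 called higher and 0 lower, where 13.1% and 10.4% of all genes were called. The 3 with the smallest p were Ppp1r15a (4.24, SE 0.067), which encodes the phosphatase subunit that ends the translation block, Ddit3 (3.06, SE 0.10), which encodes CHOP, and the pseudokinase gene Trib3 (2.94, SE 0.10). On day 2 that list had 0 called higher and Trib3 called lower (-1.17, SE 0.26), where 5.35% and 4.48% of all genes were called. With sertraline 0 of the 10 were called, against 1.82% and 3.26% of all genes, and 5 were higher and 1 lower at the adjusted p alone, against 17.6% and 17.7%, with Ddit3 at 0.46 (SE 0.055) and Chac1 at 0.44 (SE 0.058).

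In ER oxidative folding, 2 of 14 were called higher in TDECs against 005 cells, Ero1l (3.55, SE 0.087), the other oxidase and a known hypoxia target, and Ero1lb. Of the ATF6 and OASIS family with its proteases, 2 of 7 were higher, Wfs1 (2.37, SE 0.07) and Creb3l2 (1.47, SE 0.069). Among the cofactors of BiP and ER prolyl isomerases, 2 of 14 were higher, Creld1 (1.53, SE 0.087) and Fkbp10 (1.71, SE 0.15). N-glycan transfer and glycoprotein folding gave 1 of 14, Stt3b (1.30, SE 0.054), a catalytic subunit of the oligosaccharyltransferase. The other genes of ER-associated degradation gave 1 of 18, Selenos (1.19, SE 0.068). The other COPII and cargo receptor genes gave 1 of 19, Kdelr3 (2.09, SE 0.13), a receptor that returns chaperones to the ER. None of the 17 other translocon, signal peptidase and signal receptor genes was called in either direction. At the adjusted p alone, 10 of them were higher and 2 lower, against 32.4% and 33.0% of all genes. No gene of these 7 lists was called lower in that comparison. Of all genes, 13.1% were called higher, so the genes named are given singly and not as a result about their lists. With sertraline, no gene of these 7 lists was called. Each list had 3 to 10 genes higher and 0 to 3 lower at the adjusted p alone, where 17.6% and 17.7% of all genes were. ER oxidative folding had 4 higher and 3 lower of 14, with a median of -0.095, and the COPII list 10 higher and 0 lower of 19, with a median of 0.18.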

How the data were processed

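The authors deposited raw counts of reads per gene, whole numbers that had not been normalized, for 49585 genes in 15 libraries. Tools in the submitters' processing notes are HISAT2 2.1.0, featureCounts 1.6.3, Trimmomatic 0.38 and bcl2fastq 2.19, with build mm10. The library kit was directional, but the strand setting, the treatment of reads with several alignments and the annotation release were not given in the sources used here, so counts of overlapping genes may share reads.

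Each comparison was fitted on the 6 libraries of its groups over all genes in R 4.3.3 with edgeR 4.0.16 (TMM, filterByExpr with a minimum count of 10, glmQLFit and glmQLFTest, two-sided, Benjamini-Hochberg over all genes tested). The difference between steps used the 9 libraries of 005, TDEC day 2 and TDEC. SE is the fold change over the root of the F statistic. The scripts were tested on simulated data. DESeq2 1.42.0, other scalings and filters, a replicate block and leaving out libraries were tried as alternatives. The study states separate biological replicates for TDECs with and without sertraline only, so p-values elsewhere may measure technical spread.

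The members, role groups and lists were chosen with earlier results of these data known. Values per library are given, in each role group, for up to 4 members with the smallest p in TDEC against 005, for members called with sertraline and for those called against the main direction, and from each further list up to 3 called genes per direction are named by smallest p. Exon lengths and overlaps came from GENCODE M21, in which 26 of the 33 members have the coordinates of the count table. A search of protein ends for ER retrieval signals was planned and not run, since protein sequences were not used here. The list of stem markers held a further gene that is not reported here.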

Additional observations from a re-analysis of the deposited data

Results flagged for a closer look

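Ssr1, a subunit of the translocon-associated complex, changed in opposite directions in the 2 steps of the differentiation. TDEC day 2 was 0.45 (SE 0.074, adjusted p = 0.00067) above 005 cells on the log2 scale, and TDECs were -0.34 (SE 0.06, adjusted p = 0.00045) against TDEC day 2. The difference between the late and the early step was -0.81 (SE 0.11, adjusted p = 2.5e-05) by edgeR's quasi-likelihood test. Every library followed this course, with 196, 197 and 188 CPM in the 005 libraries, 255, 264 and 283 CPM in the TDEC day 2 libraries and 198, 216 and 214 CPM in the TDEC libraries. The value was -0.72 without TDEC day 2 replicate 3 and -0.70 without replicate 3 of 005 and of TDEC day 2.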

How the results depend on the processing

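Of 3141 values of single genes under alternatives, 3003 kept their direction and their side of the threshold, 56 changed sign while past it under neither setting, 53 fell short of it, 25 newly passed it and 4 changed sign with an adjusted p under 0.05 on at least 1 side. The 4 were Ssr1 in 005 against MBMEC on plain library totals (0.048), and, in the difference between steps, Canx without replicate 3 of 005 and of TDEC day 2 (0.19) and Pdia6 without TDEC day 2 replicate 3 (0.28) or without both replicates 3 (0.29). Leaving out 1 library at a time gave -0.16 to 0.28 for Pdia6.
Without a fold threshold, the genes higher and lower were 18 and 0 in TDEC day 2 against 005, 29 and 1 in TDEC against TDEC day 2, 26 and 5 in TDEC against MBMEC, 1 and 25 in 005 against MBMEC, and 22 and 2 with sertraline. Shares of all genes were 18.8% and 20.2%, 31.0% and 31.9%, 45.7% and 40.2%, 42.9% and 36.9%, and 17.6% and 17.7% in the same order. A fold threshold of 2 on the difference between steps left 11 higher and 0 lower, where 2227 and 2406 of 15993 genes were called. The counts at the adjusted p alone were added after the data had been seen. Of these, genes lower on day 2 were 1 on plain library totals, with a minimum count of 50, with all 15 libraries in 1 fit and without replicate 3 of 005 and of TDEC day 2, and 0 to 1 when 1 library was left out. Genes lower in TDEC against TDEC day 2 were 2 on plain library totals and 1 to 2 without 1 library. Genes higher in 005 against MBMEC were 5 on plain library totals, 0 without a filter, 2 with a minimum count of 50 and 0 to 2 without 1 library. Genes lower with sertraline were 0 on plain library totals, 1 with all 15 libraries in 1 fit and 0 to 3 without 1 library.
The genes called higher in TDEC against 005 were 19 on plain library totals, which moved the median of all genes to -0.14 and left out Sdf2l1, Pdia3 and Syvn1, and 20 to 22 without 1 library. Those in TDEC against TDEC day 2 were 12 on plain library totals and 12 to 16 without 1 library, with Hsp90b1, Pdia4, Creld2 and Os9 losing the call in some settings (0.88 to 1.00). In the difference between steps, 14 to 21 were higher and 2 to 4 lower without 1 library, and 24 and 3 without both replicates 3. The summed level of the 33 genes on plain library totals was 6138 CPM in 005 and 8567 CPM in MBMEC. The element II count was 1 in the 250 bases before the start alone. With the replicate block, genes called higher in TDEC against TDEC day 2 numbered 16, with Manf added, the genes higher on day 2 at the adjusted p alone numbered 16, and the counts of calls in the other comparisons were the same. Deviations of libraries with equal replicate numbers correlated at 0.076 at most, and in TDEC against TDEC day 2 at 0.014 at most, against 0.016 at most between unequal numbers, so the numbers were not taken to pair the samples. Counts over all genes with a minimum count of 50 were 446 lower on day 2, 1132 higher in TDEC against TDEC day 2, and 116 higher and 188 lower with sertraline, where fewer genes are tested.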

Other observations

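The further lists were also counted in TDECs against MBMECs, where 28.1% of all genes were called higher and 20.8% lower. Of the PERK branch, 6 of 10 were called higher and 1 lower. The 3 with the smallest p were Ppp1r15a (2.51, SE 0.05), Trib3 (4.15, SE 0.078) and Ddit3 (2.95, SE 0.06), and the lower gene was Eif2s1 (-1.41, SE 0.052), which encodes the translation factor subunit that PERK phosphorylates. ER oxidative folding gave 3 of 14 higher, Ero1l (5.23, SE 0.058), Tmx4 (1.45, SE 0.061) and Ero1lb (1.74, SE 0.13). Ero1l was at 1886, 1859 and 1891 CPM in TDECs against 54.7, 55.5 and 46.8 CPM in MBMECs.

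Among genes for N-glycan transfer and glycoprotein folding, Uggt2 (6.31, SE 0.15), a glucosyltransferase that checks folding, and Stt3b (1.84, SE 0.045) were higher and Ost4 (-1.01, SE 0.058) lower. Uggt2 had 601, 655 and 605 counts in TDECs against 6, 14 and 10 counts in MBMECs. The other genes of ER-associated degradation gave Erlec1 (1.63, SE 0.066) and Selenos (1.14, SE 0.068) higher, and Vcp (-1.67, SE 0.045), Ufd1l (-1.64, SE 0.06) and Edem2 (-1.38, SE 0.068) lower. VCP and UFD1 are known as partners that pull proteins out of the ER membrane. Fkbp10, a prolyl isomerase that acts on collagen, was lower at 19.6, 21.4 and 22.8 CPM in TDECs against 124, 120.0 and 127 CPM in MBMECs, with -2.47 (SE 0.067). Of the BiP cofactors and prolyl isomerases, the list of Fkbp10, Creld1 (1.37, SE 0.053) was the 1 gene called higher of 14. Of the ATF6 and OASIS family with its proteases, 2 of 8 were higher, Creb3l1 (1.82, SE 0.25) and Wfs1 (1.74, SE 0.057). Of the COPII and cargo receptor list 1 of 19 was higher, Kdelr3 (4.59, SE 0.16). None of the 17 other translocon, signal peptidase and signal receptor genes was called in that comparison by edgeR, and 11 were higher and 4 lower at the adjusted p alone, where 45.7% and 40.2% of all genes were.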
